A study of Mus musculus with 22 samples.

Results

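The genes of respiratory complex I were followed in single astrocytes that had been grouped by their calcium response to ethanol (EtOH). The members are all gene symbols beginning with *Nduf* in the count table, which were 45 of 23453 genes. They comprise 7 core subunits, 9 accessory subunits of the matrix arm, 19 accessory subunits of the membrane arm, the mitochondrial acyl carrier protein *Ndufab1*, the paralogs *Ndufa4* and *Ndufa4l2*, and 7 assembly factors named *Ndufaf*. A read was found in at least 5 cells for 43 of the 45, and these 43 were compared between types among the 12719 genes of the table that passed the same minimum.

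The cells were primary astrocytes cultured from the cortex of newborn C57BL/6 mouse pups, with no genetic change named in the labels, and the cultures had been shaken and treated with cytosine arabinoside to remove other cells such as microglia. All cells were exposed acutely to EtOH while intracellular calcium was imaged, so NR means cells that met EtOH and did not respond, not untreated cells. Each cell was then drawn into a micropipette and its RNA amplified and sequenced, giving 6 S-type cells (sustained signal), 6 T-type cells (transient signal), 5 M-type cells (mixed signal) and 5 NR cells. The labels assign no cell to an animal or culture, so every response type stands for 1 sample here, no test between types was made, and cells are shown to describe the spread within a type.

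Total counts per cell ran from 2937786 to 22131076 reads, and between 6319 and 13070 genes had a read. Counts were divided by size factors, the median ratio of a cell to the geometric mean of all cells over 3670 genes with a read in every cell, and values so scaled are called normalized counts. The factors were lowest in T-type cells 2 and 3, at 0.276 and 0.183, against 0.923 to 2.31 in S-type, M-type and NR cells, so each read of those T-type cells weighs more in a mean. All 10 astrocyte markers had reads in each type, and their summed level in CPM (a read count scaled to the total of its cell) had medians of 3824, 2278, 3161 and 6535 in cells of the S-type, T-type and M-type and in NR cells, and ran from 1051 to 8972 over all cells. The 8 microglia markers summed to between 0.0664 and 44.3 CPM in NR cells (7 with reads), 0 and 5.02 in T-type (7), 0 and 0.533 in M-type (6) and 0 and 0.308 in S-type (2), with *P2ry12* at 0 in NR, S-type and M-type cells and *Tmem119* at 0 in S-type and T-type. Of 8 oligodendrocyte lineage markers 6 had reads in S-type, T-type and M-type and 7 in NR, with *Sox10* at 0 throughout, and their sum ran from 32.2 to 897 CPM in S-type, 196 to 3329 in T-type, 139 to 2231 in M-type and 207 to 484 in NR. The 7 neuron markers (5, 6, 5 and 7 with reads in S-type, T-type, M-type and then NR) summed to 58.1 to 2076, 38.1 to 431, 100 to 536 and 91.9 to 611 CPM, with *Dcx* at 0 outside NR, *Rbfox3* at 0 in S-type and *Snap25* in M-type. The 6 fibroblast and mural markers (5, 3, 4 and 4) summed to 21.7 to 227, 0 to 840, 0.194 to 30.3 and 1.49 to 238 CPM in that order, with a T-type median of 0.102, *Rgs5* at 0 throughout, *Col1a1* and *Dcn* at 0 in T-type and *Lum* in M-type and NR, and the 5 endothelial markers (3, 3, 1 and 2) to at most 35.7 CPM, with *Cldn5* and *Cdh5* at 0 throughout. What part these marker differences have in the results below was not tested.

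Complex I is the largest enzyme of the mitochondrial respiratory chain. It takes electrons from NADH through a flavin and a chain of iron-sulfur clusters in its matrix arm, passes them to ubiquinone, and pumps protons through its membrane arm. The core subunits carry this chemistry, the accessory subunits surround and stabilise them, and assembly factors help to build the complex and then leave it. The membrane arm also contains core subunits encoded in mitochondrial DNA, which were not analysed here, nor were the levels of *Ndufb1*, *Ndufb4b*, *Ndufb4c* and *Ndufaf8*.

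Promoter sequences are shown for the 4 members that were at least 2-fold higher in T-type cells than in both S-type and NR cells and are set beside the motifs of factors known to act on respiratory chain genes. The choice was made on normalized counts. With mean CPM the T-type over S-type log2 ratios of *Ndufa8* and *Ndufa7* were 0.27 and 0.38. Without T-type cell 2 the T-type over NR log2 ratios of *Ndufs8* and *Ndufa7* were -0.27 and -0.01. Each run gives the 250 bases before the RefSeq transcription start on GRCm38.p6 in 5′ to 3′ direction of the gene, and capitals mark letters of the motifs searched. GENCODE vM21 lets *Ndufb4* begin at chr16:37654453 and *Ndufa8* at chr2:36049406, so the last bases of both runs lie inside the GENCODE gene. RefSeq gives *Ndufa7* more than 1 start, and the run before the upstream one is shown, which has no match.
Ndufb4, chr16:37654369-37654618, minus strand: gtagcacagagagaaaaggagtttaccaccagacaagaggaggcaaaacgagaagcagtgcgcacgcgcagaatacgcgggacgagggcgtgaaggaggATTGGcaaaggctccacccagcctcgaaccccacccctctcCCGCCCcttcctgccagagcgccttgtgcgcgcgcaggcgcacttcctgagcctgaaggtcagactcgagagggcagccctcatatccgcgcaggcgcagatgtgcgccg
Ndufs8, chr19:3912775-3913024, minus strand: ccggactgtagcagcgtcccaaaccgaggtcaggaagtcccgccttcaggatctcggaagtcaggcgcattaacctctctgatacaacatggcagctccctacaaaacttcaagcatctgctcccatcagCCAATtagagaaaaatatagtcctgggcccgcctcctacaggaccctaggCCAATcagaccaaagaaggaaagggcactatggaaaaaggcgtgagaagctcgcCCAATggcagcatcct
Ndufa8, chr2:36049339-36049588, minus strand: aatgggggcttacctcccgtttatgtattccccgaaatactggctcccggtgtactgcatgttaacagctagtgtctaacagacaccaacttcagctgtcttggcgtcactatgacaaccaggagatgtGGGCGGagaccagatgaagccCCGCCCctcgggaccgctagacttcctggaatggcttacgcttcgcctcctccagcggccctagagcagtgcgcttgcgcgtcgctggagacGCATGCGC
Ndufa7, chr17:33824322-33824571, plus strand: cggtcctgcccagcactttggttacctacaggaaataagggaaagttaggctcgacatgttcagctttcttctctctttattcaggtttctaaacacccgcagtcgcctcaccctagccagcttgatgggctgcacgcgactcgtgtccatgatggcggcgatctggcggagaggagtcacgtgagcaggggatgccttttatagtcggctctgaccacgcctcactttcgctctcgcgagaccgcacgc

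The motifs were GCATGCGC (NRF1), CCGGAAG (ETS family including GABPA), AAGATGG (YY1), CCAAT (NFY) and GGGCGG (SP1), each on both strands, and matches of different motifs were allowed to overlap. RefSeq held promoters for 39 of the 45 members, and windows of 300 bases, from 250 before to 50 after the start, were searched. The NRF1 letters occurred in 5 of the 39 members (12.8%) against 3.05% of 27025 genes, the YY1 letters in 17.9% against 7.28%, and the SP1 letters in 51.3% against 38.2%. The ETS letters occurred in 12.8% against 9.93%, and the CCAAT letters in 33.3% against 41.1%. *Ndufa8* has the NRF1 letters at the end of the printed run, *Ndufb4* has CCAAT and SP1 letters, and *Ndufs8* has CCAAT at 3 places. These matches describe the letters only.

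Reads on the 45 members made up between 0.453% and 1.12% of a cell's reads, with a median of 0.836% over the 22 cells. In S-type cells the share had a lowest value of 0.572%, a median of 0.712% and a highest of 1.10%, and in T-type cells these were 0.481%, 0.777% and 1.09%. In M-type cells it was 0.906%, 0.902%, 0.741%, 0.777% and 0.987%, and in NR cells 0.453%, 0.866%, 0.869%, 1.07% and 1.12%. The 4 types overlapped, and the NR cells alone held both the lowest and the highest share of all 22 cells. Exact 95% intervals of these shares were narrow, for example 0.4500% to 0.4559% in NR cell 1 and 0.6498% to 0.6684% in the shallowest library, T-type cell 3, but the libraries carry no molecular identifiers, so reads copied from the same molecule are counted separately and the intervals hold counting error alone.

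**Figure D1:**
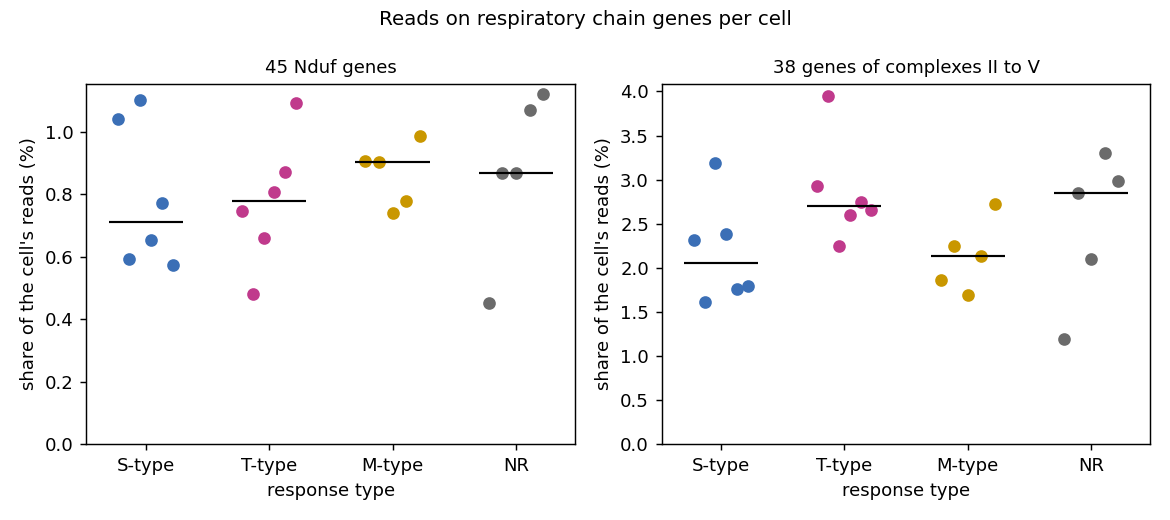
Share of a cell's reads (vertical axis, %) that fell on the 45 *Nduf* genes (left) and on 38 genes of complexes II to V (right), with 1 point per cell, response types along the horizontal axis and a bar at the median of each type. The types overlap in both panels, and the medians of the *Nduf* share run from 0.712% in S-type to 0.902% in M-type.

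Per kilobase of transcript, the highest members were membrane arm subunits. *Ndufc2*, which is encoded at chr7:97400003-97407802, had a mean level over the 22 cells of 17835 normalized counts per kb, *Ndufb6* 16946 and *Ndufa1* 12236. Core subunits were far lower per kb, with *Ndufv2*, an iron-sulfur subunit of the NADH-oxidising tip, at 2191 and *Ndufv1*, which binds NADH and the flavin, at 595. Of the assembly factors *Ndufaf2* was highest at 1691 per kb, and *Ndufaf6* and *Ndufaf3* were lowest at 224 and 107. Amplification from the poly(A) tail weights transcripts toward their 3′ ends, so these values per kb are rough.

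Between 40 and 44 of the 45 members had a read in a cell. *Ndufa4l2*, the hypoxia-linked paralog of *Ndufa4*, had 0 reads in all 22 cells, and 3 reads, the limit a count of 0 allows, correspond to a level of 0.319 to 0.622 normalized counts in a type. *Ndufa4*, once assigned to complex I and now known as a subunit of cytochrome c oxidase, was read in every cell, from 989 to 9781 normalized counts with a median of 3275.

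*Ndufs5*, an accessory subunit facing the intermembrane space, had 2 reads in the whole table, 1 each in M-type cells 4 and 5. It lies at chr4:123712710-123718202, and a processed pseudogene annotated as *BC002163* at chr16:42955631-42955949 repeats its coding sequence. Of the 319 aligned bases 317 were identical, and the run gives the first 300 of them, which hold both differences, on the strand of *Ndufs5* from GENCODE vM21 with the differing bases in capitals. It is shown because a read from most of it matches both places. The copy covers 319 of the 680 bases of the aligned *Ndufs5* transcript. Over all *Ndufs5* transcripts, 15.7% of the runs of read length also occurred in another gene, and the other runs did not. Whether the copy accounts for the 2 reads was not tested.
Ndufs5: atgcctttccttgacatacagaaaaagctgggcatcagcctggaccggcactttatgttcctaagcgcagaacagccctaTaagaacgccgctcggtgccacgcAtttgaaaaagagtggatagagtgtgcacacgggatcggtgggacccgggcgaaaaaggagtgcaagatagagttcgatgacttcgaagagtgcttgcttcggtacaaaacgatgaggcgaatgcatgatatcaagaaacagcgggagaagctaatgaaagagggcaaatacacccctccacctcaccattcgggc

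*BC002163* was read in all 22 cells, with 2327 reads in total and a median of 57.9 normalized counts between a lowest of 17.3 and a highest of 214. The deposited counts hold uniquely aligned reads, and how reads of *Ndufs5* were divided between the gene and the copy was not tested, so no level is given for it. *BC002163* was looked at after these counts had been seen.

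Other members share sequence too. The processed pseudogene *Ndufb4c* was identical to *Ndufb4* over all of its 390 bases, of the 971 bases of the *Ndufb4* transcript, and 17.2% of the runs of 75 bases in *Ndufb4* transcripts, the read length, also occurred in another gene. This share was 63.2% for *Ndufaf2*, which overlaps the lincRNA *B230220B15Rik* on the opposite strand, 27.8% for *Ndufb6*, 25.6% for *Ndufa13*, 14.6% for *Ndufa12*, 13.4% for *Ndufb9*, 12.2% for *Ndufs3*, 10.6% for *Ndufb5* and 8.11% for *Ndufab1*, and lower for the other members whose levels were compared. Whether the counting used the strand is not stated, so the levels of the genes named here are uncertain.

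Structural subunits varied less between cells than other genes in their range of level. The SD over the 22 cells of log2(normalized count + 1) had a median of 1.12 over the 35 structural subunits compared, against 2.36 over the 4555 genes in the same range of mean level. Within this range the median level was 2299 for the subunits and 1207 for the 4555 genes. What part this has in the SD was not tested. Among the subunits the SD ran from 0.51 to 1.91. The SD was lowest for *Ndufc2* at 0.51, whose normalized counts stayed between 5869 and 18799, and for *Ndufb8* at 0.68, named after its value was seen. None of the 770 values of these subunits was 0. For 38 genes of complexes II to V, at a median level of 4859, the median SD was 1.00 and 0 of 836 values were 0. The low SD was thus not particular to complex I. Among the 7 assembly factors the median SD was 2.65, and 10 of their values over the 22 cells were 0.

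**Figure D2:**
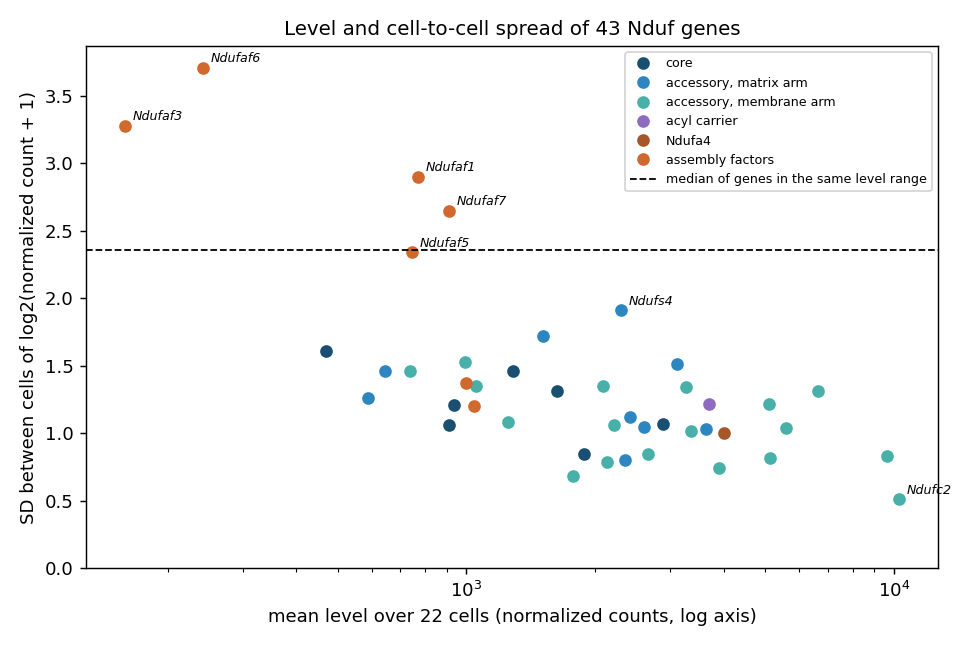
Mean level over 22 cells (horizontal, normalized counts, log axis) and SD between cells of log2(normalized count + 1) (vertical) for the 43 *Nduf* genes compared, coloured by role, with the median SD of genes in the same level range as a dashed line at 2.36. The structural subunits lie below the line, and *Ndufaf1*, *Ndufaf3*, *Ndufaf6* and *Ndufaf7* lie above it.

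Several assembly factors had cells with much and cells with almost nothing. *Ndufaf6*, a factor of early assembly, had an SD of 3.71 and went from 0 in S-type cells 1 and 2, T-type cells 2 and 5 and NR cell 1 to 1445 normalized counts in T-type cell 3. *Ndufaf3*, which pairs with *Ndufaf4* early in assembly, had an SD of 3.28 and a highest value of 1483 in M-type cell 1 beside a median of 69.7 over all cells. *Ndufaf1*, part of the machinery that assembles the membrane arm, had an SD of 2.90 and ranged from 0 in T-type cell 5 to 5198 in T-type cell 3. The mean levels of *Ndufaf3* and *Ndufaf6*, 159 and 242 normalized counts, lie below the range of 470 to 10282 from which the comparison genes were taken.

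Members varied together only loosely. Over the 22 cells, which share library depth and amplification as sources of joint variation, the median Spearman coefficient was 0.16 over 595 pairs of structural subunits and 0.23 over 378 pairs of accessory subunits. It was 0.05 over 21 pairs of core subunits, -0.02 between core and accessory subunits and -0.05 between structural subunits and assembly factors. For comparison, 703 pairs of genes of complexes II to V had a median of 0.28. Over 1330 pairs of a structural subunit with a gene of complexes II to V it was 0.20. The members with the lowest median coefficient with the other members were *Ndufaf7* at -0.19 and *Ndufs1* at -0.13, and the highest were *Ndufb6* and *Ndufa2* at 0.30. The *Nduf* share of reads had a coefficient of 0.49 with the share on complexes II to V, 0.33 with the total reads and -0.04 with the number of genes detected.

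**Figure D3:**
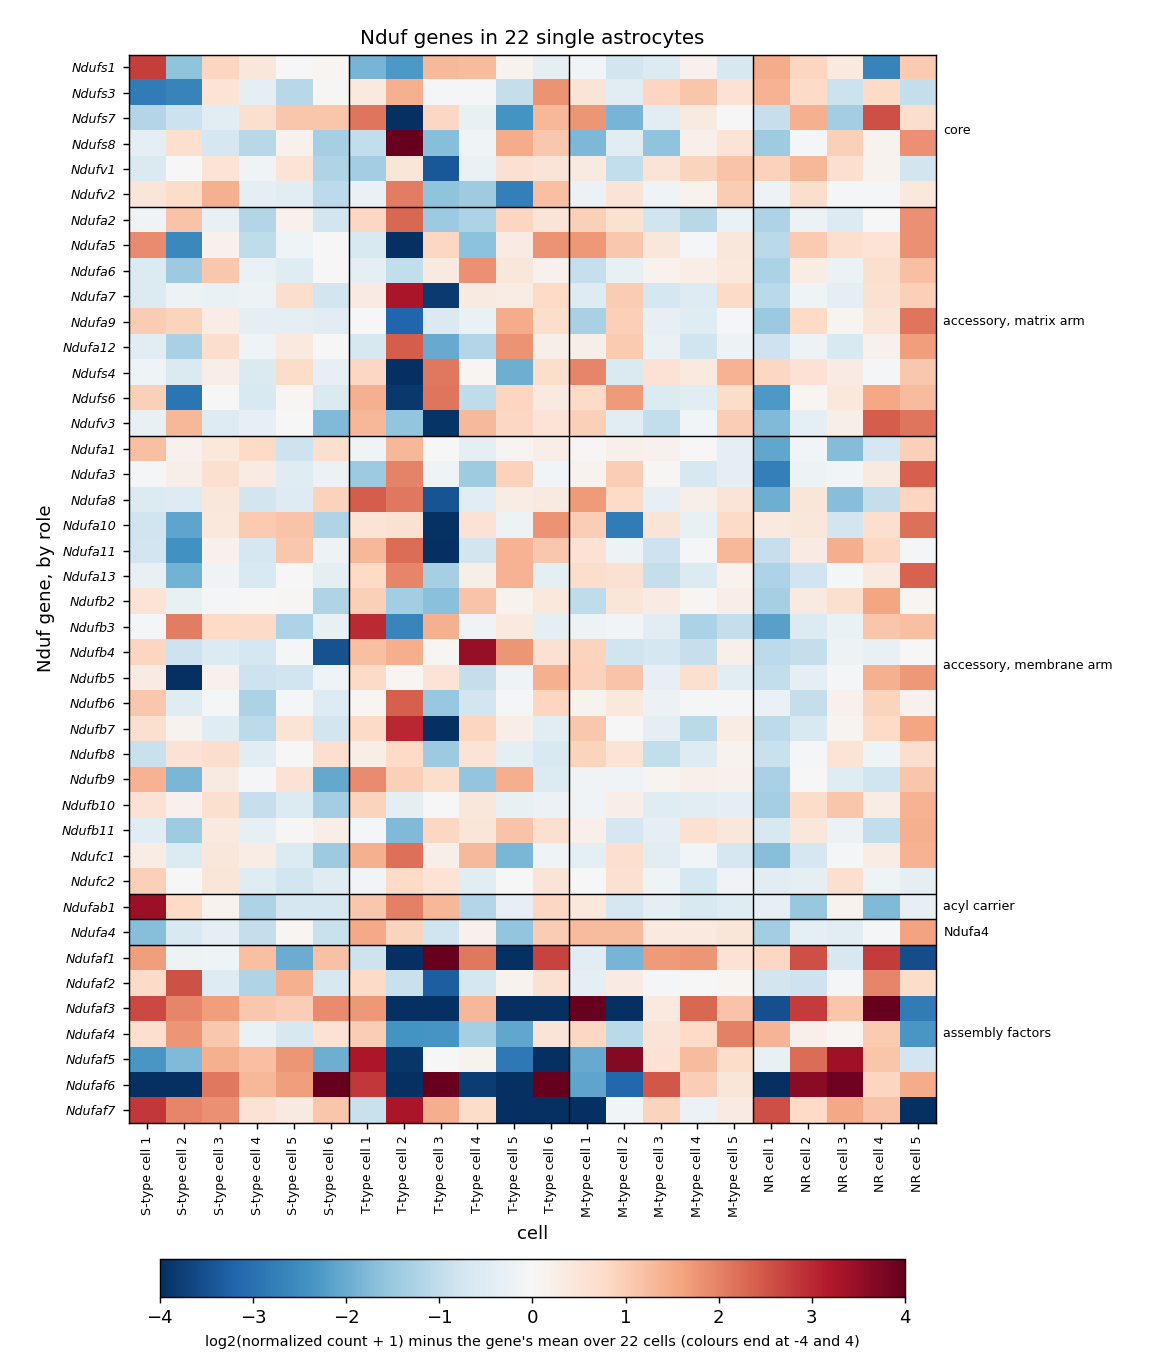
Log2(normalized count + 1) of 42 of the compared *Nduf* genes minus the gene's own mean over the 22 cells, with cells in columns by response type and genes in rows by role (red above the mean, blue below, colours ending at -4 and 4). T-type cell 2 holds both some of the highest and some of the lowest values, NR cell 5 is red in most structural rows, and the rows of the assembly factors show the strongest contrasts.

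Some cells stood out over many members. NR cell 5 was the highest NR cell for 23 of the 43 members and NR cell 1 the lowest for 28, and their median normalized counts over the members were 2605 and 875. T-type cell 2 was the highest T-type cell for 16 members and the lowest for 13, with a median of 2640. Its size factor was 0.276, and its *Nduf* share of reads, 0.481%, was the lowest of the T-type cells. In T-type cells 12 of the 43 members (27.9%) had the majority of their summed normalized counts in 1 cell, in NR 8 (18.6%), in M-type 4 (9.30%) and in S-type 3 (6.98%). Among genes in the level range of the structural subunits these percentages were 52.8, 34.3, 22.7 and 21.6, so the order of the types was the same.

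The comparison of T-type with S-type cells asked how the transient and the sustained response differ in the genes of the complex. Normalized counts were averaged over the cells of a response type to give a level, and a log2 ratio of 2 levels describes each comparison, with 2-fold as the size counted. Levels were higher in T-type for 33 of the 43 members and lower for 10, with a median log2 ratio of 0.49 against -0.07 over all genes tested. Over the 8497 genes with a mean level of at least 100, a minimum chosen after seeing the data that all 43 members reach, the median was 0.12, with 26.4% at least 2-fold higher and 24.7% at least 2-fold lower. At least 2-fold higher in T-type were 12 members (27.9%), close to the 26.0% of all genes tested, and at least 2-fold lower were 3 (6.98%), against 32.2% of all genes. No member had cells of the 2 types that did not overlap, which 0.771% of all genes tested showed.

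Among the core subunits *Ndufs8*, an iron-sulfur protein near the ubiquinone site at chr19:3908863-3912774, had the widest ratio. Its normalized counts had a lowest value of 240, a median of 423 and a highest of 957 in S-type cells. In T-type cells the median was 907 and the highest 14108, with cell 3 below the S-type cells. The types overlapped, and the 14108 of T-type cell 2 made up 78.0% of the T-type sum. The log2 ratio was 2.59 (95% interval from counting 2.53 to 2.65), and 0.67 without T-type cell 2.

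*Ndufs3*, a core subunit of the matrix arm, had levels of 1185 in T-type and 479 in S-type, a log2 ratio of 1.31 that stayed between 0.94 and 1.69 when any 1 cell was left out. *Ndufs7*, which carries the last iron-sulfur cluster of the chain, had a ratio of 0.35, and *Ndufv2* and *Ndufv1* 0.07 and -0.06. *Ndufs1*, the core subunit with the most iron-sulfur clusters, was lower in T-type at -0.78. For *Ndufs1* S-type cell 1 held 55.0% of the S-type sum, and without it the ratio was 0.11.

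In the matrix arm 8 of 9 accessory subunits were higher in T-type, with a median log2 ratio of 0.62, and with mean CPM these were 7 of 9 and 0.20. In the membrane arm 16 of 18 were higher, with a median of 0.63, and with mean CPM 10 of 18 and 0.07, beside an all-gene median of -0.44. *Ndufb4*, at chr16:37647170-37654453, had a lowest value of 115, a median of 841 and a highest of 2362 normalized counts in S-type cells, and 1369, 3288 and 14511 in T-type cells. Only S-type cell 1 exceeded the lower T-type cells. The log2 ratio was 2.23 (2.19 to 2.27), and it was 1.48 without T-type cell 4, the lowest value on leaving out a cell. *Ndufa13*, which is also required for assembly of the complex, had a ratio of 1.26, and *Ndufa8*, on the intermembrane side, 1.14. *Ndufa7*, a small matrix arm subunit, had 1.48, and 0.29 without T-type cell 2, where its normalized count was 3895 against at most 701 in the other T-type cells.

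The 7 assembly factors went both ways, with a median of -0.41. *Ndufaf1* was higher in T-type at 1.69 and *Ndufaf6* at 1.27, but without T-type cell 3 these ratios were 0.49 and 0.39. *Ndufaf3* was lower at -1.86, *Ndufaf4* at -1.19, and *Ndufaf2*, a late factor related to the subunit *Ndufa12*, at -1.10, or -0.40 without S-type cell 2. *Ndufaf3* was read in all 6 S-type cells, from 62.8 to 200 normalized counts, and among T-type cells it had 107 in cell 1, 80.3 in cell 4 and 0 in the other 4.

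**Figure D4:**
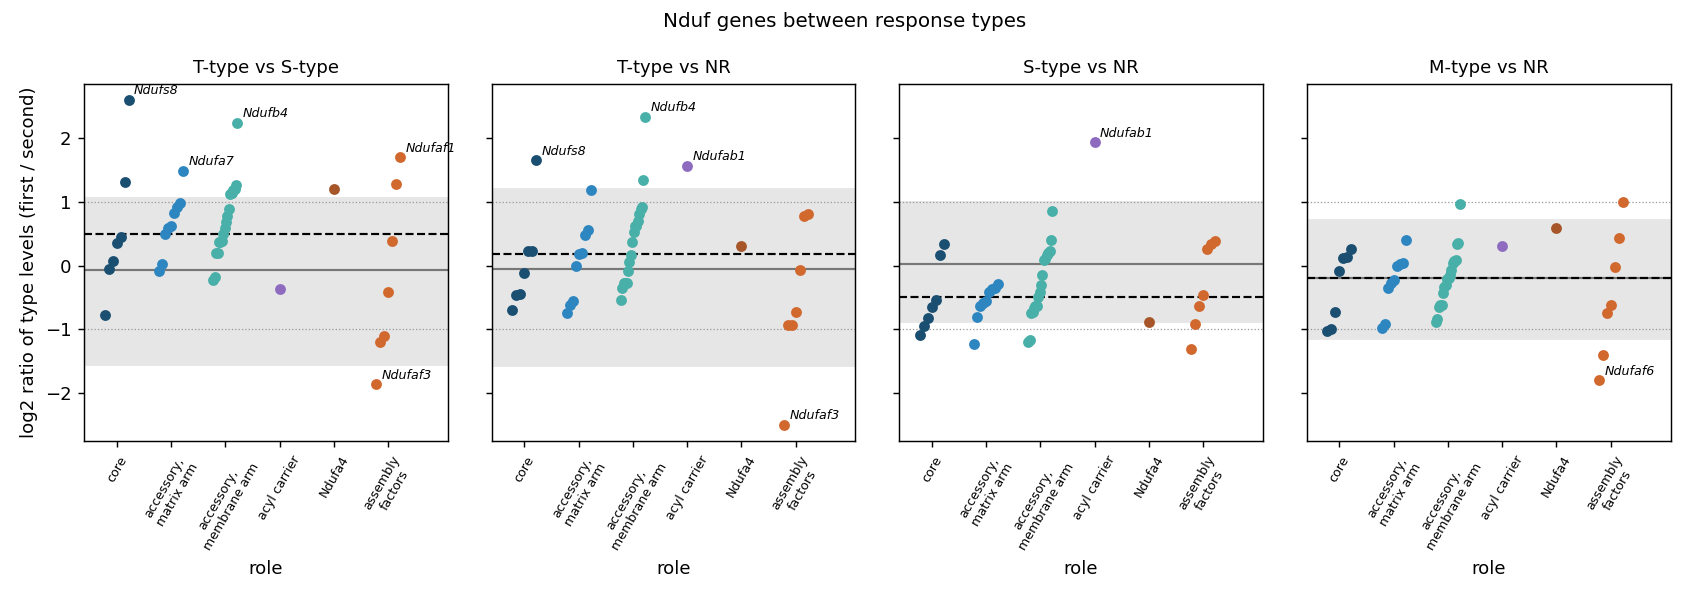
Log2 ratio of type levels (vertical) for each compared *Nduf* gene by role (horizontal) in 4 comparisons, first type over second. The grey band and line give the middle 50% and the median of all 12719 genes tested, the dashed line the median of the members, and dotted lines the 2-fold limits, and the dashed line lies above the grey line by 0.56 in T-type versus S-type and close to it, at -0.19 against -0.20, in M-type versus NR. The band takes in genes at low levels, and over genes with a mean level of at least 100 the T-type versus S-type median was 0.12.

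The direction of the members relative to all genes in T-type versus S-type was the same with TMM factors, mean CPM and pooled reads, but the size of single ratios changed with the scaling. With mean CPM in place of normalized counts the median of all genes moved to -0.44 and that of the members to 0.07, a difference of 0.51 against 0.56 in the main scaling, and 3 members instead of 12 were at least 2-fold higher, with 16.7% of all genes instead of 26.0%. The core subunits had a median of 0.35 in the main scaling and -0.16 with mean CPM, above that of all genes in both. The count of 12 was 6 without T-type cell 2, when 22.8% of all genes were at least 2-fold higher, and 17 without S-type cell 1, when 27.2% were.

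T-type and NR cells were compared to set the transient response against cells without one. The members had a median log2 ratio of 0.18 against -0.05 over all genes tested and 0.15 over genes with a mean level of at least 100. With mean CPM the medians were -0.29 for the members and -0.45 for all genes, with pooled reads -0.27 and -0.52, and without T-type cell 2 -0.17 and -0.12, the 1 setting of these in which the members were not above all genes. At least 2-fold higher in T-type were 5 members (11.6%) against 28.6% of all genes, and at least 2-fold lower 1 member (2.33%) against 32.4%. Without NR cell 5 the members at least 2-fold higher numbered 14, with 29.4% of all genes. Without T-type cell 1 those lower numbered 4, with 33.9% of all genes. This comparison shares its T-type cells with the one above and its NR cells with those below, so their values are not independent.

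*Ndufb4* was the 1 member whose cells did not overlap between T-type and NR, a pattern that 0.991% of all genes tested had. In NR cells it had normalized counts of 633, 676, 1138, 1053 and 1277, all below the lowest T-type value of 1369. The log2 ratio was 2.33 (2.29 to 2.37), a 5.03-fold higher level in T-type, and it stayed between 1.58 and 2.52 on leaving out any 1 cell. In CPM the ratio was 2.10 but the cells overlapped, since T-type cells 2 and 3 had 78.5 and 85.4 CPM and NR cell 3 had 105.

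*Ndufs8* had 226, 576, 1165, 672 and 2145 normalized counts in NR cells and overlapped with T-type. Its log2 ratio of 1.65 was -0.27 without T-type cell 2. *Ndufa8* had 591, 3167, 690, 1176 and 4123 in NR cells, against 207 at the lowest, 2864 at the median and 12044 at the highest in T-type, and its ratio of 1.34 stayed between 0.85 and 1.81. *Ndufa7* had a ratio of 1.18, which was -0.01 without T-type cell 2.

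*Ndufab1*, the acyl carrier protein that serves both complex I and mitochondrial fatty acid synthesis, had 1864, 818, 2609, 689 and 1882 normalized counts in NR cells. Its T-type cells had a lowest value of 1049, a median of 4592 and a highest of 9665. The log2 ratio was 1.56, still above 2-fold and at most 1.82 on leaving out any 1 cell. With mean CPM it was 0.86 and with pooled reads 0.87, both below 2-fold. *Ndufaf3* was the member at least 2-fold lower, with 1.82, 224, 69.0, 580 and 3.71 in NR cells and a ratio of -2.49, from 120 reads in T-type and 1467 in NR. Without NR cell 4 it was -1.26, and without T-type cell 1 -3.45. Of the core subunits *Ndufv1* had a ratio of -0.70, *Ndufs7* -0.46 and *Ndufs1* -0.44, and *Ndufs3* and *Ndufv2* had 0.22 and 0.23.

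**Figure D5:**
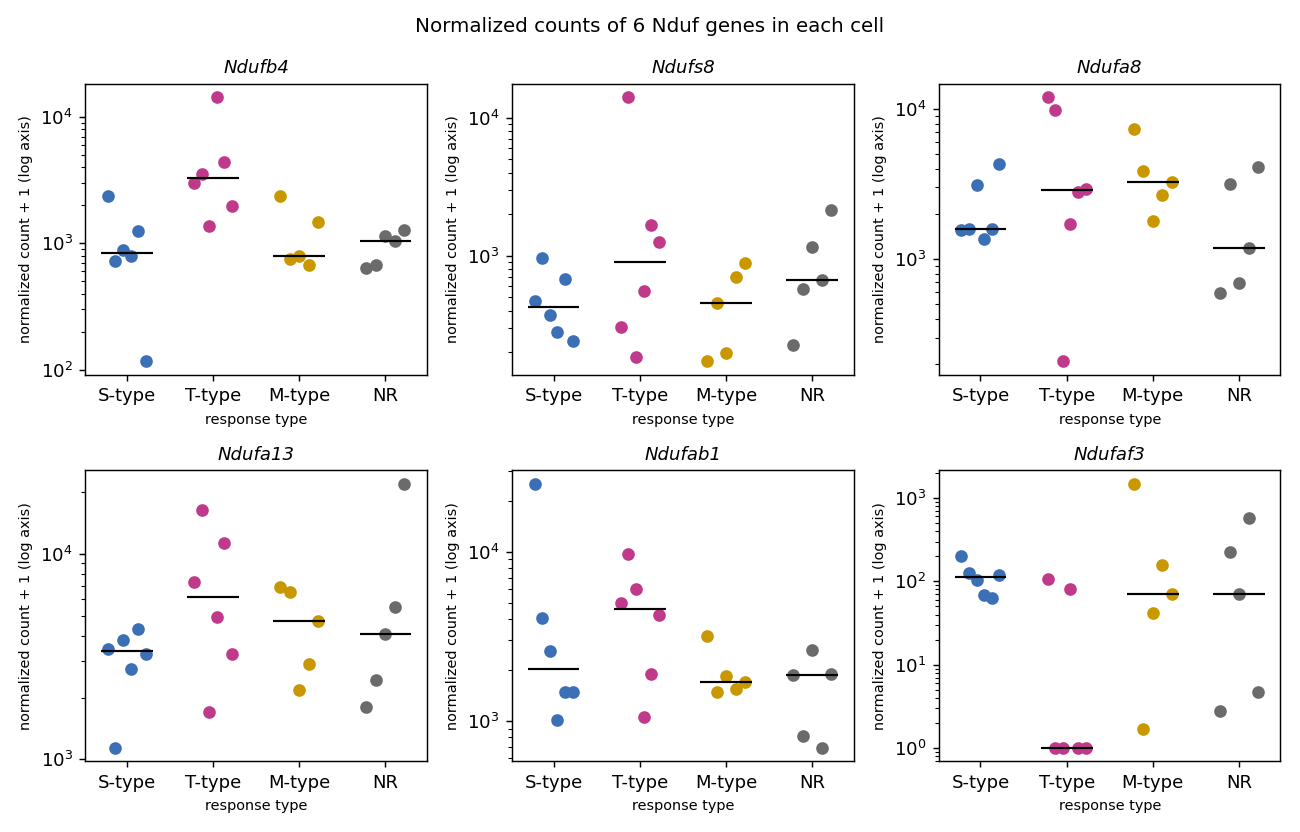
Normalized count plus 1 (log axis) of 6 *Nduf* genes in each cell, by response type, with a bar at the median. All T-type points of *Ndufb4* lie above the NR points, *Ndufs8* has 1 T-type point at 14108, and 4 T-type points of *Ndufaf3* are at 0 reads.

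In S-type versus NR cells the members were mostly lower in S-type, 30 of 43, with a median log2 ratio of -0.50 against 0.03 over all genes tested and 0.02 over genes with a mean level of at least 100. The median was -0.09 without NR cell 5, and with the other scalings it lay between -0.59 and -0.37. At least 2-fold higher in S-type was 1 member (2.33%) against 25.1% of all genes, and at least 2-fold lower were 5 (11.6%) against 22.4%. The count of 5 was 3 without NR cell 5, when 20.6% of all genes were at least 2-fold lower, and 10 without S-type cell 5, when 23.9% were. No member had cells that did not overlap, against 0.409% of all genes tested.

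All 9 accessory subunits of the matrix arm were lower in S-type, with a median ratio of -0.55. All 9 were also lower with TMM factors, mean CPM and pooled reads, but not all stayed lower without NR cell 5. Without that cell the ratios of *Ndufa2* and *Ndufa12* were 0.46 and 0.31. *Ndufs4* stayed lower on leaving out any 1 cell, with -0.48 as its highest ratio. *Ndufv3*, a subunit at the NADH-oxidising tip, had the lowest main ratio of the 9 at -1.23, or -0.70 without NR cell 4. *Ndufa13* had 1804, 2446, 4064, 5541 and 21958 normalized counts in NR cells and a lowest value of 1133, a median of 3355 and a highest of 4327 in S-type cells. Its log2 ratio was -1.20, and -0.15 without NR cell 5, whose value stood above all the rest. *Ndufb5*, a membrane arm subunit, had a ratio of -1.16 and -0.74 without that cell.

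*Ndufs3* was lower in S-type with a ratio of -1.09. Its NR cells had 1876, 1207, 392, 1241 and 371 normalized counts, and its S-type cells ran from 102 over a median of 440 to 1042, so the types overlapped. *Ndufaf5*, which hydroxylates the core subunit encoded by *Ndufs7*, had a ratio of -1.31 and -0.45 without NR cell 3. *Ndufab1* was the member at least 2-fold higher in S-type, at 1.93, but S-type cell 1 had 25243 normalized counts, 70.3% of the S-type sum, and without it the ratio was 0.44. Other cells of S-type lay between 1013 and 4080.

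*Ndufb3*, another membrane arm subunit, had a ratio of 0.40 in S-type versus NR and -0.13 without S-type cell 2, where its normalized count was 18117 against at most 7694 in the other S-type cells. *Ndufa1*, a small membrane arm subunit encoded at chrX:37187588-37191163, was among the 13 members higher in S-type. It had 1061, 4117, 1353, 2832 and 8588 normalized counts in NR cells and a lowest value of 2537, a median of 6567 and a highest of 10379 in S-type cells. The ratio was 0.85, with 0.62 and 1.47 as the extremes on leaving out a cell.

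In M-type versus NR cells the members had a median log2 ratio of -0.19 against -0.20 over all genes tested and -0.14 over genes with a mean level of at least 100, and 27 of 43 were lower in M-type, or 23 with mean CPM. None was at least 2-fold higher in M-type against 19.8% of all genes, and 3 (6.98%) were at least 2-fold lower against 28.1%. No member had cells that did not overlap, against 0.598% of all genes tested. Without NR cell 5 the median of the members was 0.16, against -0.12 over all genes. Without NR cell 3 the members at least 2-fold lower numbered 7, with 27.9% of all genes.

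The 3 lower members were *Ndufaf6* at -1.79, *Ndufaf7* at -1.40 and *Ndufs1* at -1.03. *Ndufaf6* had 8.13, 3.50, 219, 77.3 and 54.4 normalized counts in M-type cells and 0, 484, 586, 70.0 and 110 in NR cells, which overlapped. *Ndufaf7*, a methyltransferase of early assembly, had 10.6, 360, 709, 326 and 483 normalized counts in M-type cells and 2321, 676, 1114, 858 and 3.71 in NR cells. *Ndufs1* had 1045, 677, 774, 1258 and 728 in M-type cells and 3125, 2035, 1491 and 2343 in NR cells 1, 2, 3 and 5. For *Ndufs1* NR cell 4 was below all M-type cells and the other 4 NR cells were above them. For *Ndufaf7* NR cell 5 was below all M-type cells and NR cell 2 lay among them.

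*Ndufs8* and *Ndufaf3* lay just outside the 2-fold limit, with the M-type level 0.501 and 2.00 times the NR level; unrounded, neither reached 2-fold. *Ndufaf3* had 1483, 0.700, 41.3, 157 and 70.4 normalized counts in M-type cells, so that M-type cell 1 held 84.6% of the sum, and without it the log2 ratio became -1.38. *Ndufa8* was the structural subunit with the highest ratio, 0.96, from 7346, 3855, 1804, 2652 and 3272 in M-type cells. *Ndufs4*, a subunit of the matrix arm needed late in assembly, had 6067, 1054, 2332, 2032 and 4065 in M-type and 2756, 2331, 1939, 1496 and 3291 in NR cells, a ratio of 0.40.

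The other enzymes of oxidative phosphorylation were read from lists fixed by symbol. Of 38 genes of complexes II to V, 34 were higher and 4 lower in T-type than in S-type. Their median log2 ratio was 0.78, beside 0.58 for the 35 structural subunits of complex I. At least 2-fold higher were 14 (36.8%), against 26.0% of all genes tested, and 0 were at least 2-fold lower, against 32.2%. With mean CPM 24 of the 38 were higher, with a median of 0.32 beside -0.44 for all genes. In T-type versus NR 11 (28.9%) were at least 2-fold higher, close to the 28.6% of all genes, and 1 (2.63%) lower, against 32.4%. The median of the 38 was 0.49 there, beside -0.05 for all genes. With mean CPM these medians were 0.01 and -0.45, and with pooled reads -0.04 and -0.52. In S-type versus NR the median of the 38 was -0.25, beside 0.03 for all genes. Of the 38 genes 0 were at least 2-fold higher and 4 lower there, against 25.1% and 22.4% of all genes. In M-type versus NR the median of the 38 was -0.35, beside -0.20 for all genes. There 0 of the 38 were at least 2-fold higher and 3 lower, against 19.8% and 28.1% of all genes. Among complexes II to V the ATP synthase had the highest median in T-type versus NR, at 0.84 over 15 genes, and 0.23 with mean CPM.

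Assembly factors that do not carry an *Nduf* symbol were 12 genes in the table. In T-type versus S-type 4 of them (33.3%) were at least 2-fold higher, against 26.0% of all genes, and 2 (16.7%) lower, against 32.2%. In T-type versus NR 3 (25.0%) were higher and 3 (25.0%) lower, against 28.6% and 32.4%. In S-type versus NR 2 (16.7%) were higher and 3 (25.0%) lower, against 25.1% and 22.4%, and in M-type versus NR 0 were higher and 4 (33.3%) lower, against 19.8% and 28.1%. The gene furthest from a ratio of 0 was *Nubpl*, whose product delivers iron-sulfur clusters to complex I. It had normalized counts of 1656, 1191, 0.719, 57.4 and 114 in NR cells and 1962, 606, 602, 268 and 1122 in M-type cells. Among S-type cells *Nubpl* ran from 0 over a median of 144 to 801, and among T-type cells it had 32.4 in cell 1, 3.20 in cell 6 and 0 in the other 4. The log2 ratio was -5.43 for T-type over S-type and -6.67 for T-type over NR, and NR and T-type cells overlapped.

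Of 11 regulators of mitochondrial biogenesis in the table, 4 (36.4%) were at least 2-fold higher and 1 (9.09%) lower in T-type than in S-type, against 26.0% and 32.2% of all genes. In T-type versus NR 3 (27.3%) were higher and 4 (36.4%) lower, against 28.6% and 32.4%. *Ppargc1a*, the coactivator that drives this programme, had mean levels of 4172 normalized counts in T-type, 2433 in NR, 2073 in S-type and 1030 in M-type. The T-type mean came from cells 2 and 3, at 14945 and 9338, with the other 4 between 6.48 and 380. By the median over cells T-type was lowest, at 333, beside 2057 in NR, 1794 in S-type and 1183 in M-type. *Nrf1*, whose motif was searched above, had mean levels of 60.3 in T-type, 140 in NR, 215 in S-type and 171 in M-type, and *Gabpa*, an ETS factor, 557, 945, 519 and 1110 in that order. No regulator had cells that did not overlap in any of the 4 comparisons.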

How the data were processed

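Counts of reads per gene in 22 single cells were analysed as deposited. The authors amplified RNA from each cell, sequenced stranded libraries, aligned reads with STAR to GRCm38 and counted uniquely aligned exonic reads with VERSE (the labels also name HTSeq). Tool versions and the strand setting of the counting are not given in the sources used here. Groups came from the response type in the labels, and replicate numbers follow the order of deposit only.

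Size factors, levels and ratios were computed with Python 3.11.15, NumPy 2.4.6, pandas 2.3.3 and SciPy 1.17.1, TMM factors with edgeR 4.0.16 in R 4.3.3, and plots with matplotlib 3.10.9. A gene needed a read in at least 5 cells, a type without a read took 3 reads as its level, and genes at least 2-fold apart were counted. Intervals of a ratio came from the exact binomial split of the reads and, like those of a share, cover counting error at 95% confidence only. No test between types was run, because each type is 1 sample. The ratio calculation was tested on simulated data. Median totals were 14059810 reads in T-type, 15156344 in S-type, 17777436 in NR and 20652035 in M-type cells.

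Named members were the 7 core subunits, in each comparison the 5 with the largest ratio in each direction where the mean over all cells reached 10 normalized counts, those reaching it whose cells did not overlap, *Ndufa4* and *Ndufa4l2*, the 3 highest and 3 lowest per kb, and those without a read; *Ndufb8*, *Ndufb9*, *Ndufa2* and *Ndufa12* were named after their values were seen. The values of 1 member are not reported here, though it is included in the counts and medians. Members and gene lists were chosen with earlier results of these data known. Alternatives were TMM factors, mean CPM, pooled reads, thinning to the smallest library, a pseudocount of 1, no filter, a minimum mean level of 10, structural subunits alone, and each cell left out in turn.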

Additional observations from a re-analysis of the deposited data

Results flagged for a closer look

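In 23 of 116 combinations of a gene or summary with a response type, the highest or lowest cell lay far from the nearest other cell relative to the whole range of its type. For normally spread values chance gives about 1 in 20, and the rate that chance gives in single-cell counts was not tested. All genes flagged were named members, which were partly chosen for large ratios in these same data. A single extreme cell can give such a ratio, so 23 of 116 cannot be set against 1 in 20. Values are normalized counts. In S-type cells these were *Ndufab1* at 25243, *Ndufb6* at 16674 and *Ndufs1* at 7683 in cell 1, *Ndufb3* at 18117 and *Ndufv3* at 1091 in cell 2, *Ndufa7* at 660 in cell 5 and *Ndufaf6* at 696 in cell 6. In T-type cell 2 they were *Ndufb6* at 41996, *Ndufs8* at 14108, *Ndufa1* at 11192, *Ndufa7* at 3895 and *Ndufaf7* at 3739. In other T-type cells they were *Ndufb3* at 34948 and *Ndufaf5* at 2677 in cell 1, *Ndufaf1* at 5198 in cell 3 and *Ndufb4* at 14511 in cell 4. In M-type cells they were *Ndufab1* at 3177 and *Ndufaf3* at 1483 in cell 1 and *Ndufaf5* at 3579 in cell 2. In NR cells they were *Ndufa13* at 21958 and *Ndufa4* at 9781 in cell 5 and *Ndufc2* at 15042 in cell 3, and NR cell 1 had reads for 42 of the members where the other NR cells had 43. T-type cell 2 had the fewest genes with a read, 6319, and a size factor of 0.276, and the part of these in its values was not tested.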

How the results depend on the processing

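The median ratio of the members kept its direction under every scaling in T-type versus S-type, S-type versus NR and M-type versus NR. In T-type versus NR it was 0.18, and -0.29 with mean CPM, -0.27 with pooled reads and -0.03 with T-type cells 2 and 3 left out, while the median of all genes went from -0.05 to -0.45, -0.52 and -0.24, so that the members stayed above all genes by 0.15, 0.25 and 0.21 (0.23 in the main scaling). Members at least 2-fold higher in T-type than S-type numbered 12, with 3 by mean CPM, 2 by pooled reads and 7 without T-type cells 2 and 3. The shares of all genes were 26.0%, 16.7%, 16.4% and 22.1% in the same order. Those lower numbered 3, with 5 by pooled reads and 0 among structural subunits, beside 32.2%, 39.9% and 32.2% of all genes. In T-type versus NR 5 were higher, with 1 by mean CPM, 1 by pooled reads and 3 without T-type cells 2 and 3. The shares of all genes were 28.6%, 19.3%, 18.6% and 24.3%. Lower was 1, with 6 by mean CPM, 5 by pooled reads, 3 after thinning, 2 without those cells and 0 among structural subunits. The shares of all genes that were lower were 32.4%, 37.9%, 40.3%, 32.7%, 35.9% and 32.4%. In M-type versus NR 0 were higher, with 2 by TMM factors, 1 by mean CPM and 1 by pooled reads. The shares of all genes were 19.8%, 21.3%, 20.2% and 20.4%. Lower were 3, and 1 among structural subunits, beside 28.1% of all genes in both settings. Leaving out 1 cell moved the median between 0.38 and 0.62 in T-type versus S-type, -0.17 and 0.39 in T-type versus NR, -0.59 and -0.09 in S-type versus NR, and -0.40 and 0.16 in M-type versus NR. In T-type versus S-type the counts ran from 6 to 17 higher (22.8% and 27.2%) and 2 to 4 lower (32.7% and 33.8%). In T-type versus NR they ran from 4 to 14 (30.3% and 29.4%) and 1 to 4 (35.5% and 33.9%). In S-type versus NR they ran from 0 to 2 (24.2% and 25.4%) and 3 to 10 (20.6% and 23.9%). In M-type versus NR they ran from 0 to 2 (18.8% and 19.6%) and 3 to 7 (31.1% and 27.9%). Percentages are the shares of all genes in a setting that gave the count. For T-type over NR, *Ndufs8* ran from -0.27 without T-type cell 2 to 2.19 without NR cell 5 and was -0.02 without T-type cells 2 and 3, and *Ndufa7* ran from -0.01 without T-type cell 2 to 1.48 without NR cell 5. The cause of these shifts was not tested. Leaving out T-type cells 2 and 3, the Nduf share of reads per cell after thinning (median 0.832%) or for structural subunits (0.769%), the scaling of single roles and the genes with a mean level of at least 100 were chosen after seeing the data. No paired analysis was possible because replicate numbers follow the order of deposit and no comparison was a test.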
